A study of Mus musculus with 48 samples.

Results

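Whole jejunum of mice with the genotype Bmal1iec-/- was compared between 2 circadian times, CT21 and CT9, by sequencing of polyadenylated RNA. The comparison took every library labelled with this genotype and either time that has a column in the count table: 4 at CT21 and 3 at CT9, so 7 of the 47 libraries with a column. The labels describe 1 further knockout CT9 library, replicate 1, which was not analysed here. CT counts hours of the animals' own day in constant darkness, in which all mice of the series were kept, and the 2 times lie 12 h apart. The control genotype, bmal1fl/fl, carries floxed Bmal1 alleles and has 4 libraries at each of the 2 times. The study aims the knockout at the epithelium of the intestine, whereas the RNA came from the whole tissue, which also holds muscle, immune, stromal and nerve cells with no intended deletion. The sources used here give no promoter for the deletion and no strain, age or sex. Nothing in the labels ties a library to a mouse of its own. The p-values thus rest on the spread among libraries within groups, estimated over all 12 groups and 47 libraries of the series. That spread may be technical.

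Bmal1, whose gene symbol is Arntl, encodes the transcription factor that pairs with CLOCK or NPAS2 and binds E-box sequences in the daytime part of the cycle. This pair switches on the genes of its own repressors, the period, cryptochrome and REV-ERB proteins, and those of the D-box factors DBP, TEF and HLF, whose transcripts therefore cycle in most tissues. In the intestine the same loop is known to time genes of nutrient transport, and signals from feeding, body temperature and hormones can also drive daily change. The question the comparison addresses is which transcripts still differ across the day when the epithelial clock has lost this factor.

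Total counts of the 7 libraries ranged from 4.95 to 6.36 M, and a count of 3, the most that an observed 0 allows, is worth between 0.472 and 0.606 CPM taken on raw totals. This floor speaks for counting error alone, and the labels mention no molecular identifiers. Knockout CT21 replicate 4 stood apart from the other 6 libraries before any test. Its genes deviated from their median over the 47 libraries with an interquartile range of 1.1 on the log2 scale, against 0.274 to 0.469 in the 42 libraries of the series without this trait. Short genes were high and long genes low in it: the median deviation was 0.54 for the 3839 genes with the shortest exon length and −0.50 for the 3838 longest. It also had the steepest rise of level with GC content (slope 6.89, against −2.25 to 2.34 in the 42) and 2.42% of counts from mitochondrial genes (3.74% to 5.63% in the 42). Control CT21 replicate 1 shows the same signs more weakly, with an interquartile range of 0.879 and 2.86% mitochondrial counts, so a library of this kind sits on the CT21 side of each genotype. Knockout CT1 replicates 1, 2 and 3 carry the length trend too. Results are therefore given with all libraries, without knockout CT21 replicate 4 and, where it matters, without all 5. Its part in each result beyond these refits was not tested.

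**Figure D1:**
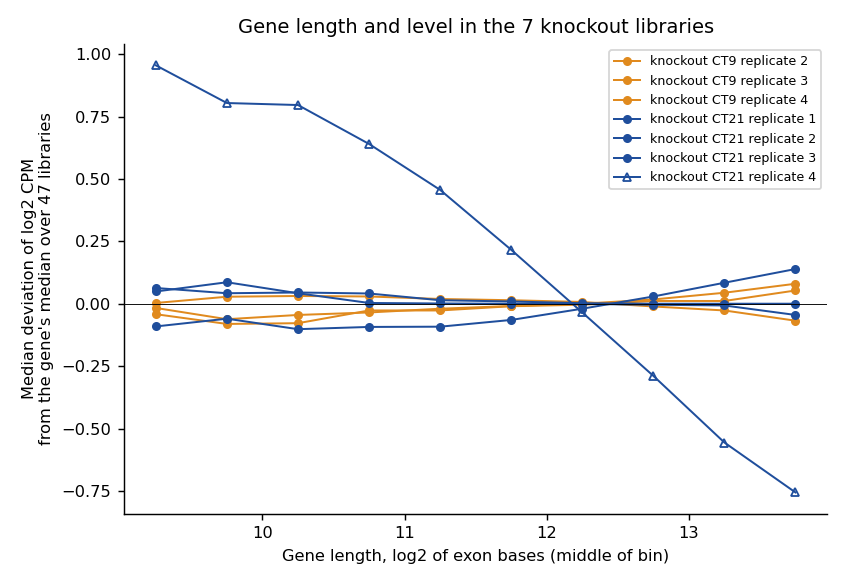
Median deviation of log2 CPM (counts per M) from the gene's median over 47 libraries, by exon length in bins of log2 bases, with a line for each of the 7 knockout libraries. Replicate 4 of CT21 (open triangles) falls from above 0 for short genes to below 0 for long genes, with class medians of 0.54 and −0.50, while the other 6 lines stay near 0.

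Enterocyte markers were abundant in both groups, as the tissue label would have it. Levels here and below are CPM, counts per M (the SI prefix mega) counts of the tested genes after scaling, as mean ± SD. The enterocyte genes Sis (sucrase-isomaltase) at 4969 ± 787 CPM, Lct (lactase) at 1992 ± 190 CPM and Fabp2 (intestinal fatty acid binding protein) at 4129 ± 693 CPM were abundant at CT9 (n = 3). At CT21 they stood at 4117 ± 1863, 2224 ± 102 and 5714 ± 1719 CPM (n = 4). Of the 7 markers of ileum and colon, Fabp6 and Car1 were among the 4 with too few counts to be tested, and the ileal bile acid transporter Slc10a2 stood at 1.03 ± 0.402 and 0.328 ± 0.171 CPM. The 3 measured markers of this list were not all so low. They summed to 35.3 to 38.8 CPM at CT9 and to 15.2 to 44.9 CPM at CT21, most of it from markers other than Slc10a2.

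Between CT9 and CT21, 32 of 15646 genes passed in the knockout (0.205%; edgeR's quasi-likelihood test, Benjamini-Hochberg adjusted p under 0.05). At CT21, 13 were higher (0.0831% of genes tested) and 19 lower (0.121%). The largest falls were those of the REV-ERB gene Nr1d1, the clock repressor Ciart, the D-box factor Dbp and the second REV-ERB gene Nr1d2. Tlcd2, which encodes a TLC domain membrane protein, had the largest rise. In the control the same contrast passed for 845 genes (5.40%). Since these are bulk samples, fewer cells of a type and less RNA per cell cannot be told apart.

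Without CT21 replicate 4, 25 genes passed in the knockout (0.160%), 7 higher (0.0447%) and 18 lower (0.115%), of which 18 are among the 32. Without the 5 libraries with the length trend, 72 passed (0.460%), among them 25 of the 32. Of the 5 libraries, only CT21 replicate 4 is in the knockout contrast. The others bear on it through the shared scaling and estimate of spread alone. Leaving out single libraries moved the count between 8, without CT9 replicate 2, and 44, without CT21 replicate 1. It was 15 without CT9 replicate 4, 19 without CT21 replicate 3 and 23 without CT21 replicate 2. In all, 7 genes passed in each of the 7 fits with 1 library left out: Nr1d1, Nr1d2, Ciart, Dbp, Per3, Tef and Tlcd2. These fits still took the spread from all 12 groups. In a fit to only the groups compared, 2 genes passed, Nr1d1 and Dbp.

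Of 21 measured genes of the clock, from 4 lists of activators and E-box repressors, period and cryptochrome genes, REV-ERB and ROR receptors, and D-box factors, 9 fell and 0 rose from CT9 to CT21 in the knockout, against 0.121% and 0.0831% of all genes tested. Without CT21 replicate 4 the falls were 8, as Hlf no longer passed (adjusted p = 0.0755). Without the 5 libraries with the length trend, which include that replicate, Hlf did pass (adjusted p = 0.0387). In the values below the CT9 libraries are replicates 2, 3 and 4 and the CT21 libraries replicates 1, 2, 3 and 4, in that order.

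The REV-ERB receptors are nuclear receptors that bind heme and repress Arntl and other genes with a ROR element, and both of their genes fell. Nr1d1 (ENSMUSG00000020889.11, REV-ERB alpha) lies on the minus strand of chromosome 11 from 98767932 to 98775333 in mm10. Exons of Thra on the opposite strand overlap those of Nr1d1, and how strand was counted is not given. Its CT9 libraries stood at 24.2, 25.4 and 13.9 CPM and its CT21 libraries at 2.58, 1.77, 2.02 and 3.04 CPM. Every CT9 library lay above every CT21 library, with replicate 4 of CT9 lowest of its group. The log2 fold change was −3.19 (SE 0.27, edgeR adjusted p = 4.76e-11). Nr1d2 (REV-ERB beta) stood at 39.3, 31.9 and 20.5 CPM at CT9 and at 7.18, 6.10, 3.30 and 2.34 CPM at CT21. The groups did not overlap here either, and CT9 replicate 4 was again lowest while CT21 replicate 4 was the lowest of all (log2 fold change −2.66, SE 0.28, adjusted p = 4.76e-08). Rora, whose product activates through the same element, did not pass. It stood at 9.18, 7.42 and 8.13 CPM at CT9 and at 5.34, 9.96, 5.87 and 3.98 CPM at CT21, overlapping, with a log2 fold change of −0.37 (adjusted p = 0.691).

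D-box factors of the PAR bZIP family carry the clock's timing to metabolic genes. Dbp (ENSMUSG00000059824.12; chromosome 7, 45705088 to 45710203, plus strand) stood at 18.7, 19.1 and 10.3 CPM at CT9 and at 1.66, 1.28, 2.02 and 2.81 CPM at CT21. All CT21 libraries were far below the lowest CT9 library (log2 fold change −3.08, SE 0.26, adjusted p = 4.76e-11). Exons of Sphk2 on the opposite strand overlap those of Dbp. Tef stood at 72.4, 75.5 and 64.3 CPM at CT9 and at 50.6, 37.9, 37.2 and 29.8 CPM at CT21. Its groups did not overlap and its fold change was smaller, −0.86 (SE 0.14, adjusted p = 5.41e-04). Hlf fell from 17.3, 13.4 and 15.7 CPM to 10.1, 9.80, 4.40 and 3.98 CPM. Its CT21 libraries split into a higher pair, replicates 1 and 2, and a lower pair, replicates 3 and 4, and the log2 fold change was −1.10 (SE 0.23, adjusted p = 0.0158). Nfil3, which represses through the D-box, had CT9 libraries at 24.8, 22.9 and 14 CPM and CT21 libraries at 28.5, 19.4, 26.4 and 29.3 CPM, overlapping, and did not pass (0.33, SE 0.24, adjusted p = 0.637).

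Period genes encode the repressors that close the loop together with the cryptochromes, and they did not move together. Per3 stood at 21.8, 17.5 and 16.8 CPM at CT9 and at 6.26, 6.75, 4.40 and 4.92 CPM at CT21, a log2 fold change of −1.73 (SE 0.23, adjusted p = 1.29e-05). Per1 stood at 34.5, 21.8 and 22.0 CPM at CT9 and at 7.92, 7.39, 10.3 and 7.96 CPM at CT21 (−1.63, SE 0.32, adjusted p = 0.00701). In both genes the CT21 libraries lay close together and below all CT9 libraries. Without CT9 replicate 2, which had the highest Per1 value, Per1 no longer passed. Per2 overlapped throughout, with 46.0, 48.1 and 72.1 CPM at CT9 and 48.0, 76.3, 65.1 and 29.8 CPM at CT21. Its log2 fold change was −0.01 with all libraries and 0.19 without CT21 replicate 4, and neither passed (adjusted p = 0.997 and 0.936). Cry1 (0.03) and Cry2 (0.20), and the casein kinase genes Csnk1d (0.02) and Csnk1e (−0.14), whose products mark period proteins for degradation, had adjusted p of 0.661 or more.

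Among the E-box repressors, which sit on the BMAL1 sites, Ciart and Bhlhe41 fell and Bhlhe40 did not pass. Ciart, the gene of the repressor CHRONO, had 24, 31 and 15 counts at CT9 and 1, 1, 3 and 4 counts at CT21. That is 4.16, 4.60 and 2.77 CPM against 0.184, 0.161, 0.550 and 0.937 CPM, and the log2 fold change of −3.12 (SE 0.46, adjusted p = 9.50e-05) rests on CT21 libraries of which 3 do not exceed the floor of 3 counts. Bhlhe41 (DEC2) was also low, with 45 counts over the CT9 libraries and 14 over the CT21 libraries (−1.87, SE 0.41, adjusted p = 0.0317). It passed in 1 of the 7 fits with a library left out. Bhlhe40 (DEC1) stood at 138, 150 and 119 CPM against 115, 155, 150 and 126 CPM (0.01, adjusted p = 0.990).

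The activators showed no difference that passed. Arntl, the targeted gene, stood at 26.1, 26.7 and 31.8 CPM at CT9 and at 37.0, 26.8, 33.9 and 26.0 CPM at CT21, overlapping, with a log2 fold change of 0.14 (SE 0.15, adjusted p = 0.788). Counts are summed over the gene, with no view of single exons, and so they neither show nor check the deletion. Npas2 stood at 79.1, 71.8 and 90.5 CPM against 105, 82.9, 79.8 and 81.5 CPM (0.12, adjusted p = 0.841). Clock overlapped between the times, from 77.5 to 111 CPM at CT9 and from 38.0 CPM, in replicate 4, to 139 CPM at CT21 (0.01, adjusted p = 0.996, and 0.27 without replicate 4).

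**Figure D2:**
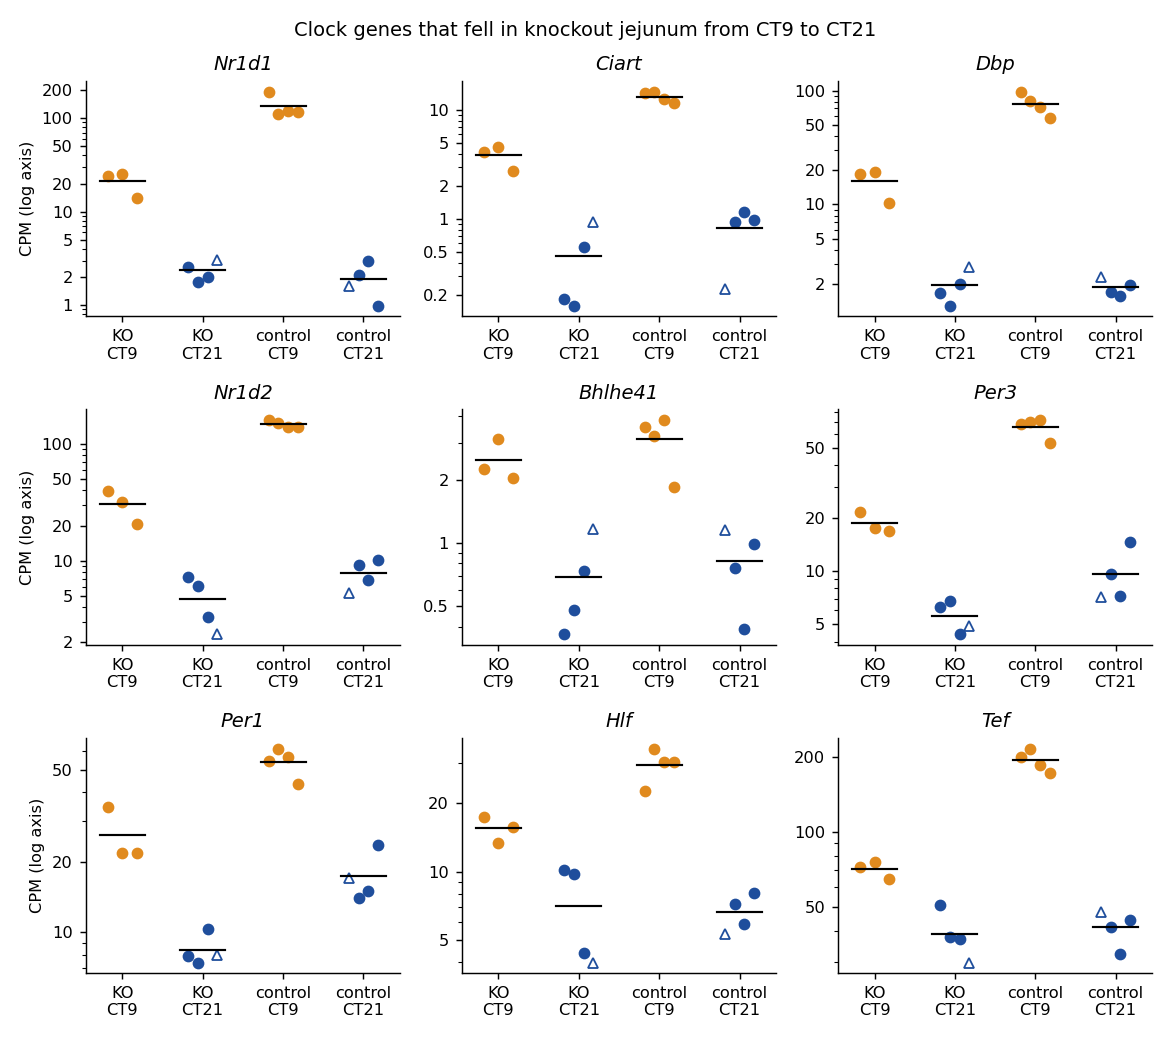
CPM on a log axis of the 9 clock genes that fell, for each knockout (KO) and control library at CT9 (orange) and CT21 (blue), with a bar at each group mean. Open triangles mark knockout CT21 replicate 4 and control CT21 replicate 1. In each panel the 3 knockout CT9 libraries lie above the 4 knockout CT21 libraries, and for Nr1d1 and Dbp the CT21 means of the genotypes are alike while the control CT9 mean is far higher.

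The start regions of these genes are shown because the E-box and the D-box are the sequences through which the clock proteins named above act. RefSeq windows of GRCm38.p6, from 250 bases before to 50 bases after a start, were available for 26 of the 32 genes and 17 of the 21 clock genes. Both strands were searched for the E-box CACGTG, the D-box TTATGTAA or TTATGCAA and the cAMP response element TGACGTCA. Motifs are in capitals, and each line runs 5′ to 3′ on the strand of the gene. Ciart lies at chr3:95882179-95882478 on the minus strand, Per1 at chr11:69098699-69098998 on the plus strand, Per3 at chr4:151044616-151044915 on the minus strand and Tef at chr15:81802423-81802722 on the plus strand.
Ciart: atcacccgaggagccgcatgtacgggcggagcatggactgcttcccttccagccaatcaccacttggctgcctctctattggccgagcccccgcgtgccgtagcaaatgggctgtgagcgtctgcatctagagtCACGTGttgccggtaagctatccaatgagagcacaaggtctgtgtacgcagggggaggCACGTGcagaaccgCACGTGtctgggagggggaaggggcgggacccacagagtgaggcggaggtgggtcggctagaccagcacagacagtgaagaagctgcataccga
Per1: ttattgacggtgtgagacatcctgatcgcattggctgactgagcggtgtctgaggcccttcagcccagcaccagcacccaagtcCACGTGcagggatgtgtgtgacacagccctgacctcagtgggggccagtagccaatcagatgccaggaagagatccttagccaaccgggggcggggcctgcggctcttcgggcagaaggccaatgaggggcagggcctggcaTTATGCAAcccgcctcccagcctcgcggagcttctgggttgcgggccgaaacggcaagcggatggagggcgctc
Per3: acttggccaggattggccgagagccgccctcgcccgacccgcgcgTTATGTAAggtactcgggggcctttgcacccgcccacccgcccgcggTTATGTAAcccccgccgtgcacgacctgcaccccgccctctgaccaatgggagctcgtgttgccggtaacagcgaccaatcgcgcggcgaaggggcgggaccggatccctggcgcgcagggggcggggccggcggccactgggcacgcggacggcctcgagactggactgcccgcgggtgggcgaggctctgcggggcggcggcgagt
Tef: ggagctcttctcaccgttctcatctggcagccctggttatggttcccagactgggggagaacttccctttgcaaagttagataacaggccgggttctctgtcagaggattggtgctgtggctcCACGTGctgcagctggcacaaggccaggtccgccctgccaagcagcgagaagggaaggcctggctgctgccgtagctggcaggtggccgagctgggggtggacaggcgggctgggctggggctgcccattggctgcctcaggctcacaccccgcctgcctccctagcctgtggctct

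Ciart holds 3 E-boxes in this window, the first bases of which lie 116, 58 and 44 bases before the start. Per1 has an E-box 166 bases before the start and a D-box at 24 bases, Per3 has D-boxes at 205 and 158 bases and no E-box, and Tef has an E-box at 127 bases. Across the genes with a window the E-box occurred in 6 of the 26, Ciart, Bhlhe41, Per1, Cpeb1, Tef and Ppa1, and in 8.09% of all 27025 genes with a window. Some genes, such as Per1 and Tef, have more than 1 window, and a match in any of them counts. The D-box was found in Per3 and Per1 (1.98% of genes) and the cAMP response element in Col24a1 and Hlf (2.03%). The windows of Nr1d1, Nr1d2 and Dbp hold none of these letters. A match describes the sequence and is no measured site, and a window without one says nothing of sites elsewhere.

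The control libraries give the size of the same difference with the factor in place, and a test of the difference between genotypes was run for each gene. Of the 32 genes, 23 (71.9%) also passed in the control and in the same direction. Those 23 are 2.72% of the 845 control genes, and 0 of the 32 had opposite signs in the genotypes. The 9 that did not pass in the control are Cpeb1, Ssbp2, Rnase4, Acsl5, Rbp2, Gm7560, Adora2b, Leap2 and Tsga10, and for none of these 9 did the genotype difference pass. It passed for 3 of the 32, Nr1d1, Dbp and Tef, all with a smaller fall in the knockout.

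Nr1d1 stood at 192, 111, 119 and 117 CPM in the control CT9 libraries and at 1.61, 2.09, 2.94 and 0.985 CPM at CT21. The control fall was −6.12 (SE 0.26) on the log2 scale and the knockout fall was smaller by 2.93 (SE 0.42, adjusted p = 2.35e-05). At CT21 the knockout libraries, 1.77 to 3.04 CPM, overlapped those of the control, and at CT9 they lay far below them. Dbp had the same shape, with control libraries from 57.2 to 98.2 CPM at CT9 and from 1.57 to 2.30 CPM at CT21 (control log2 fold change −5.35, genotype difference 2.27, SE 0.39, adjusted p = 4.42e-04). Tef fell by 2.23 in the control, from 172 to 216 CPM down to 32.1 to 47.4 CPM, and the genotype difference was 1.37 (SE 0.19, adjusted p = 2.05e-05). For Nr1d2 the control fall was −4.22 and the genotype difference of 1.57 did not pass (adjusted p = 0.0568), nor did that of Per3 (1.03, adjusted p = 0.238). Per1 fell by 1.63 in each genotype, with a genotype difference of −0.01 (SE 0.33), and its level was lower in the knockout at both times: 26.1 ± 7.24 against 43.6 to 61.6 CPM at CT9, and 8.38 ± 1.28 against 14.1 to 23.6 CPM at CT21.

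Over all genes, 65 passed the genotype difference (0.415%; 82, or 0.524%, without knockout CT21 replicate 4 and 41 without knockout CT9 replicate 2). In 63 of these the control difference was the larger, 35 of the 65 being higher and 30 lower at CT21 in the control. Among them are the clock genes Nr1d1, Dbp and Tef, which fell in the control, and Arntl, Npas2, Bhlhe40 and Nfil3, which rose in the control. Arntl rose by 2.91 in the control, from 8.48 to 11.3 CPM up to 66.1 to 89.4 CPM, and the genotype difference was −2.77 (SE 0.21, adjusted p = 1.91e-12). Nfil3 (control 2.88, genotype difference −2.55, adjusted p = 9.12e-06), Npas2 (1.57 and −1.46, adjusted p = 1.37e-04) and Bhlhe40 (1.01 and −1.0, adjusted p = 0.00770) followed the same pattern.

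Outside the clock, among genes with a mean of at least 5 CPM in a group, the largest genotype difference was that of Slc34a2, the sodium-phosphate cotransporter of the brush border. Knockout libraries stood at 1021, 820 and 879 CPM at CT9 and at 1097, 740, 851 and 786 CPM at CT21, overlapping. Control libraries stood at 46.6, 38.2, 29.5 and 55.0 CPM at CT9 and at 284, 325, 476 and 516 CPM at CT21. The knockout log2 fold change was −0.06, that of the control 3.24, and their difference −3.30 (SE 0.39, adjusted p = 1.12e-06). All 7 knockout libraries thus lay above the highest of these 8 control libraries. Ypel2 (knockout −0.18, control 2.36, adjusted p of the difference 7.20e-05), Sprr2a1, a small proline-rich protein gene (−0.38 and 2.31, 0.0367), and Gm28373, a predicted gene (−0.08 and 2.84, 0.00326), rose in the control with no change that passed in the knockout. Sprr2a1 has near-identical copies, so its counts are uncertain. Ces1d, a carboxylesterase gene, rose by 1.87 in the control and had −0.42 in the knockout (adjusted p of the difference 4.42e-04), with knockout libraries between 9.76 and 25.1 CPM at both times.

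Sugar transporters were chosen for mention after their values were seen. Slc5a1, the sodium-glucose cotransporter, fell in the control from 4380 ± 428 to 1548 ± 130 CPM and stood at 2379 ± 438 and 2013 ± 203 CPM in the knockout (genotype difference 1.26, adjusted p = 1.45e-04). Slc2a5, the fructose transporter, fell in the control from 196 ± 34.0 to 54.5 ± 5.5 CPM and stood at 54.4 ± 5.08 and 58.4 ± 20.4 CPM in the knockout (1.94, adjusted p = 9.12e-06). For Slc5a1 and Slc2a5 alike, the knockout levels at both times were nearer the control's CT21 level. The 2 genes whose knockout difference was the larger, named for that reason, are Fbxl16 and Fam167a, and neither passed in either genotype. Fbxl16 stood at 2.65 ± 0.406 and 1.11 ± 0.396 CPM in the knockout, with a genotype difference of −1.79 (SE 0.43, adjusted p = 0.0425). This difference did not pass without knockout CT21 replicate 4 (adjusted p = 0.0839). The genotype difference of Fam167a, 3.62 (SE 0.86, adjusted p = 0.0367), rests on a knockout CT9 mean of 0.218 CPM, under the floor of 3 counts.

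Genes that passed in the control were then read in the knockout. The contrasts of the genotypes share no library, but both come from the same fit, with shared scaling, filter and estimate of spread. Of the 457 that were higher at CT21 in the control (2.92% of genes tested), 404 (88.4%) had a knockout log2 fold change above 0, against 51.4% of all genes tested, and 7 passed. Their median was 0.73 in the control and 0.27 in the knockout. Of the 388 that were lower (2.48%), 59 (15.2%) lay above 0 in the knockout and 16 passed, with medians of −0.82 and −0.25. The genes were picked for passing in the control, which favours large control values. The gap between the medians therefore does not measure how much smaller the knockout differences are. Each genotype has a library with the length trend at CT21, so the sets were rebuilt without the 5 such libraries. The shares above 0 were then 82.7% of 594 genes (3.8% of genes tested) and 16.3% of 479 (3.06%), against 49.9% of all genes, with knockout medians of 0.18 and −0.23.

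**Figure D3:**
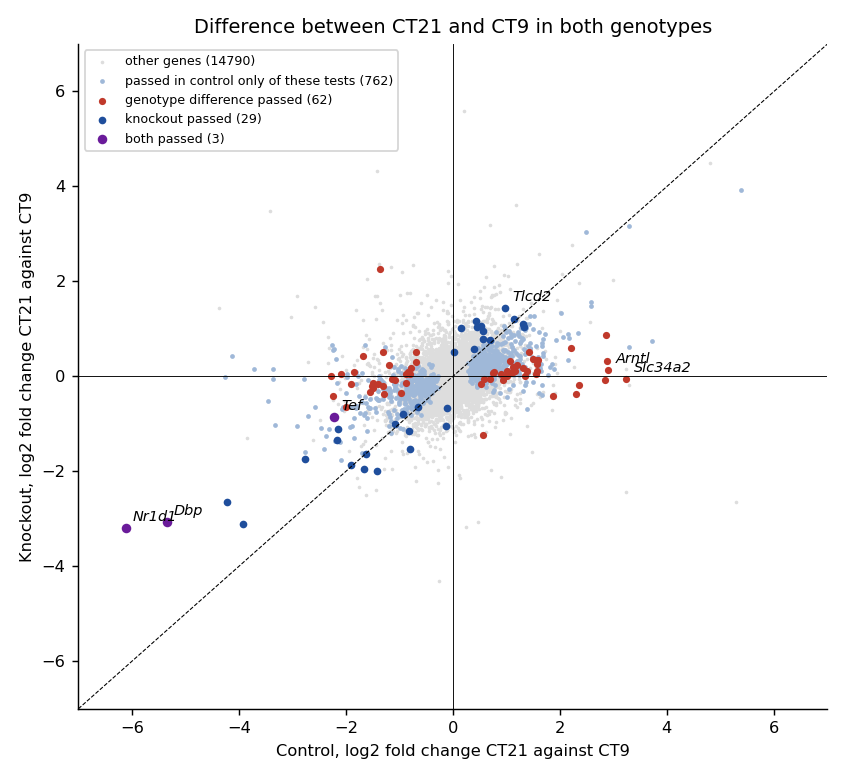
Log2 fold change of CT21 against CT9 in the knockout (vertical axis) and the control (horizontal axis), a point per gene, with the diagonal of equal change dashed. Genes that passed the genotype difference (red) lie mostly near 0 on the knockout axis, the 3 that passed both tests (purple, Nr1d1, Dbp and Tef) lie between 0 and the diagonal, and Slc34a2 stands at −0.06 and 3.24.

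The other 10 falls include structural, immune and RNA-binding genes. Col24a1, a fibrillar collagen gene, stood at 7.10, 4.01 and 4.25 CPM at CT9 and at 1.11, 1.12, 1.28 and 1.64 CPM at CT21 (log2 fold change −1.99, SE 0.33, adjusted p = 7.63e-04). Angptl2, which encodes a secreted angiopoietin-like protein, stood at 34.8, 33.4 and 29.2 CPM against 13.6, 16.4, 16.7 and 12 CPM (−1.14, SE 0.21, adjusted p = 0.00527). Neither gene's groups overlapped, and both also fell in the control, by 1.41 and 0.82. Rbm3, the cold-inducible RNA-binding protein gene, stood at 159, 159 and 131 CPM against 91.0, 78.7, 78.7 and 96.0 CPM (−0.80, SE 0.15, adjusted p = 0.00433). Its control fall of −0.93 was of like size (genotype difference 0.13, SE 0.20, which did not pass). Its fellow cold-inducible gene Cirbp did not pass in the knockout (−0.08, adjusted p = 0.954). The median of these 2 genes was −0.44 with all libraries, −0.65 without CT21 replicate 4 and −0.67 in the control. Rbm3 itself was −0.85 without that library, so the value of Cirbp depends on it.

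Socs3, a feedback inhibitor of cytokine signalling, stood at 31.9, 17.1 and 34.0 CPM at CT9 and at 6.63, 8.84, 13.4 and 14.8 CPM at CT21 (−1.35, SE 0.31, adjusted p = 0.0460, and 0.0502 without CT21 replicate 4). Cd1d1, whose product presents lipids to natural killer T cells, had CT9 libraries between 6.10 and 7.79 CPM and CT21 libraries between 2.95 and 3.85 CPM (−1.0). Ssbp2, a single-stranded DNA binding protein gene, had 6.47 to 8.66 CPM against 3.04 to 4.60 CPM (−1.05). Both passed by a narrow margin with all libraries and not without replicate 4 (adjusted p = 0.0986 and 0.155). The remaining 4 fall outside the rule for naming and are named to complete the count: Tifa (−1.95, adjusted p = 0.0474), Cpeb1 (−1.52, 0.0198), Rnase4 (−0.66, 0.0154) and Npnt (−0.64, just under the threshold). Without replicate 4 Rnase4 passed (0.0144), and Tifa, Cpeb1 and Npnt did not (adjusted p = 0.138, 0.0941 and 0.189). Tifa, an adaptor of NF-kappaB signalling, was the 1 gene of the 32 whose groups overlapped, with 168, 43.2 and 143 CPM at CT9 and 28.2, 18.9, 47.1 and 27.9 CPM at CT21. Rnase4 overlaps exons of Ang on the same strand, so reads in the shared part cannot be told apart.

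Among the 13 rises, Tlcd2 stood at 22.2, 27.8 and 27.2 CPM at CT9 and at 64.6, 65.2, 59.2 and 91.1 CPM at CT21. The groups were well apart, with replicate 4 highest, and the log2 fold change was 1.44 (SE 0.22, adjusted p = 1.20e-04; 1.3 and 0.00178 without replicate 4). Tlcd2 lies at 75461715 to 75470899 on the plus strand of chromosome 11, where it overlaps the exons of Mir22hg on the same strand, a gene that had a log2 fold change of −0.34. Arsg, the gene of a lysosomal sulfatase, stood at 21.6, 27.9 and 25.7 CPM against 56.5, 55.1, 50.2 and 45.0 CPM (1.04, SE 0.20, adjusted p = 0.00563). It rose by 1.33 in the control, and here replicate 4 was the lowest CT21 library.

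Metabolic enzymes were among the rises. Ephx2, soluble epoxide hydrolase, stood at 438, 433 and 498 CPM at CT9 and at 770, 782, 705 and 843 CPM at CT21 (0.76, SE 0.15, adjusted p = 0.00701). Eci3, an enoyl-CoA isomerase gene of fatty acid oxidation, stood at 60.4, 56.7 and 60.1 CPM against 95.5, 76.9, 98.3 and 138 CPM (0.79, SE 0.15, adjusted p = 0.00519). Both passed without replicate 4 as well, and both rose in the control, by 0.70 and 0.55. Ppa1, a pyrophosphatase gene (0.57), and Acsl5, a long-chain acyl-CoA synthetase gene of fat absorption (0.52), had adjusted p = 0.0460 and did not pass without it (0.166 and 0.155). Without the 5 libraries with the length trend Ppa1 and Acsl5 passed (adjusted p = 0.0358 and 0.0369).

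Rbp2, the retinol binding protein of enterocytes, stood at 1204, 1809 and 1355 CPM at CT9 and at 2071, 2537, 2349 and 4413 CPM at CT21. Replicate 4 was far above the rest, Rbp2 is a short gene with 962 exon bases, and the log2 fold change of 0.97 (adjusted p = 0.0267) became 0.67 without it (0.159). Spon2, which encodes a secreted matrix protein, stood at 13.5, 15.7 and 13.9 CPM against 24.1, 27.5, 29.0 and 53.6 CPM, again with replicate 4 apart (1.21, adjusted p = 0.0206, and 0.90, 0.138 without it). Leap2, which encodes a secreted peptide that blocks the ghrelin receptor, stood at 46.9, 57.4 and 62.5 CPM against 133, 115, 86.7 and 130 CPM (1.06, adjusted p = 0.0187, and 1.01, 0.0688 without it). Adora2b, the adenosine A2B receptor gene, stood at 6.40, 7.42 and 9.42 CPM against 11.2, 18.5, 17.2 and 16.4 CPM (1.03, adjusted p = 0.0460, and 0.0739 without it). Without the 5 libraries with the length trend, which include replicate 4, Rbp2 (0.67, adjusted p = 0.00807) and Spon2 (0.90, 0.00146) passed. So did Leap2 (1.01, 0.0106) and Adora2b (1.02, 0.0358). The predicted genes Gm9530 (1.09) and Gm7560 (1.03), the latter a processed pseudogene, also passed, Gm9530 not without replicate 4 (adjusted p = 0.151), and so did Tsga10 (1.17), which is outside the rule for naming. In 8 of the 13 rises replicate 4 was the highest CT21 library, and in 7 of the 19 falls it was the lowest.

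**Figure D4:**
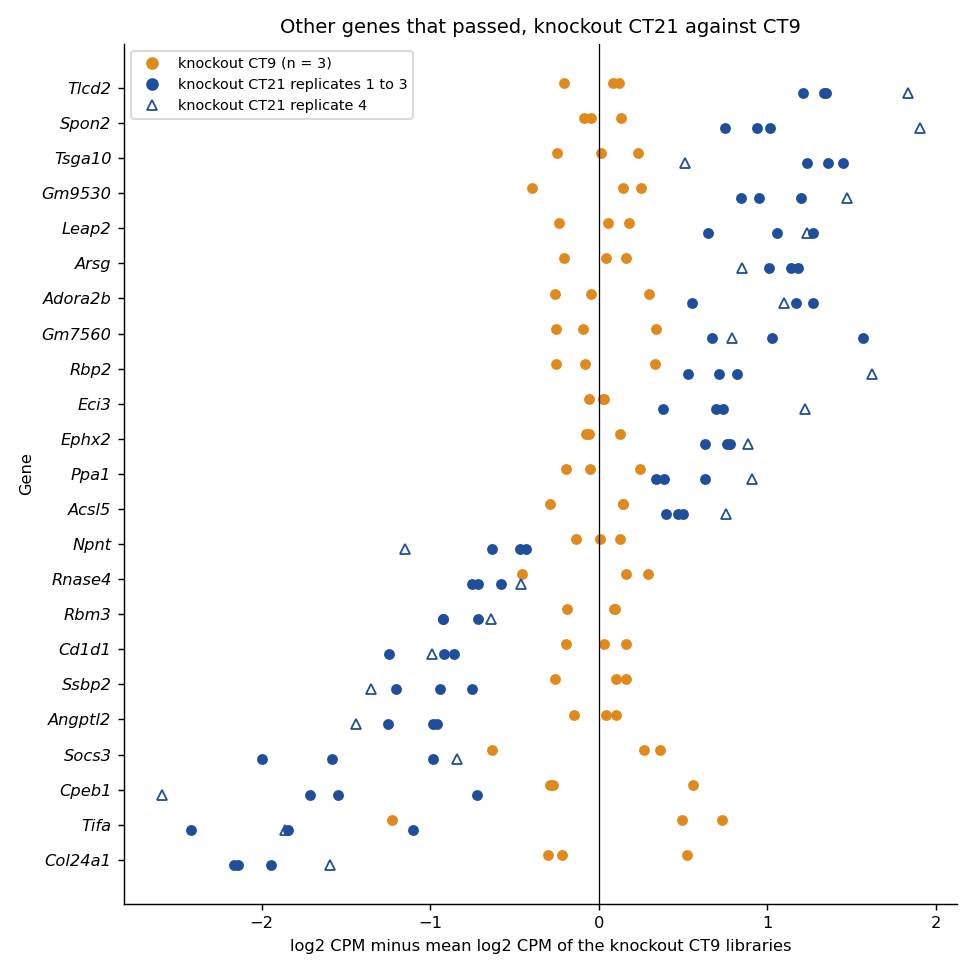
Log2 CPM of the 23 genes outside the clock lists that passed in the knockout, each library relative to the mean log2 CPM of the 3 CT9 libraries (orange), with CT21 replicates 1 to 3 (blue points) and replicate 4 (open triangles). Replicate 4 lies farthest to the right for Spon2 and Rbp2, and the groups of Tifa overlap. The calls of Spon2 and Rbp2 were lost without replicate 4 alone and kept without the 5 libraries with the length trend. Their log2 fold changes were the same in both fits, 0.90 and 0.67.

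Without replicate 4, 7 genes passed that did not pass with it, among them Slc51a, which exports bile acids from enterocytes, Abcg5, a sterol efflux transporter, and the chemokine gene Ccl22, all lower at CT21. For Slc51a the log2 fold change was −0.33 with all libraries (adjusted p = 0.638) and −0.84 without (0.0460), as its CT21 libraries stood at 124, 134, 178 and, in replicate 4, 396 CPM, beside 268, 216 and 298 CPM at CT9. Abcg5 moved from −0.59 (adjusted p = 0.0991) to −0.75 (0.0225), and Ccl22 from −1.19 (0.166) to −1.79 (0.0242). The other 4 were Upk1b, Lancl1, Cryl1 and Paqr9. These 7 are named to complete the count, outside the rule.

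The 6 times of the knockout place the 2 compared ones within the day. Of the 19 genes that fell, the CT9 mean was the highest of the 6 in 14, the CT13 mean in 4 and the CT5 mean in 1, and the lowest mean was at CT1 in 11, at CT21 in 7 and at CT17 in 1. Of the 13 that rose, the lowest mean was at CT9 in 11, and the highest was at CT1 in 7, at CT21 in 4 and at CT17 in 2. The genes were chosen for a difference between CT9 and CT21, so these counts are a description, and 3 of the 4 knockout CT1 libraries carry the length trend. Nr1d1 in the knockout climbed from 2.71 ± 0.481 CPM at CT1 to 18.3 ± 2.07 CPM at CT5 and 21.2 ± 6.35 CPM at CT9. It was 9.30 ± 1.3 CPM by CT13, and the last 2 times had 2.60 ± 0.845 and 2.35 ± 0.573 CPM. Dbp peaked at 16.1 ± 4.95 CPM at CT9 with 5.09 ± 0.513 at CT5 and 10.1 ± 1.83 at CT13. Per3 was as high at CT13, 21.5 ± 2.13 CPM, as at CT9, 18.7 ± 2.71 CPM. Per2, with no difference between CT9 and CT21 that passed (55.4 and 54.8 CPM), stood at 122 CPM at CT13, so its high point lies between the times compared. Tlcd2 had the opposite course: 63.0 ± 23.5 CPM at CT1, then 31.3 ± 6.15, 25.7 ± 3.07 and 37.8 ± 8.95 CPM at the next 3 times, and 62.8 ± 8.66 and 70.0 ± 14.3 CPM at the last 2.

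**Figure D5:**
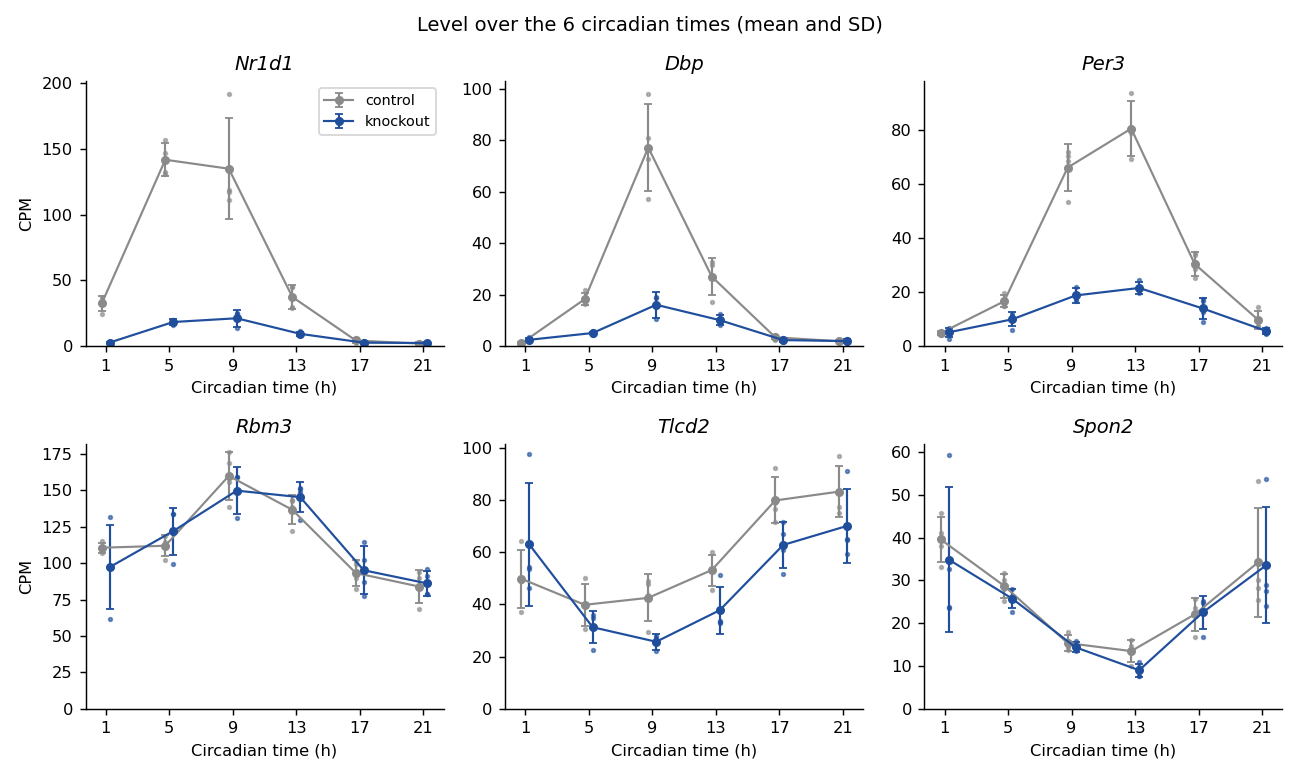
Mean and SD of CPM over the 6 circadian times for 6 genes in control (grey) and knockout (blue), with small points for single libraries (n = 4 per group, 3 at knockout CT9). In the knockout, Nr1d1 peaks at 21.2 CPM at CT9 beside 135 CPM in the control, and Rbm3 falls from CT9 to CT21 in both genotypes.

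Pathway and cell type lists were read by counts and medians beside those of all genes, whose median log2 fold change was 0.01. Of 43 lists outside the clock, 39 held no gene that passed in the knockout, and 4 held 1 each: Rbm3 among the cold-inducible genes, Acsl5 in fat absorption, and Rbp2 in both retinoid handling and enterocyte markers. Without CT21 replicate 4, 3 lists held a gene that passed: cold-inducible genes, fat absorption and bile acid handling, each with 1 that fell. Retinoid handling and enterocyte markers then held 0. The control, with 4 libraries per time, gave more calls in several of the same lists. Of 20 genes of peptide digestion and amino acid transport, 0 passed in the knockout (median −0.12; the lowest adjusted p was 0.153, for Slc36a1, at −0.68) and 11 fell in the control (median −0.52), but 0 passed the genotype difference. Of 16 genes of sugar digestion and transport, 0 passed in the knockout (median 0.06, and −0.01 without replicate 4). In the control 1 rose and 6 fell, and 4 passed the genotype difference. Of 22 genes of ion, phosphate, sulfate and water transport, 0 passed in the knockout (median −0.18, and −0.07 without replicate 4; Slc26a2, a sulfate transporter, −0.75, adjusted p = 0.147) and 8 in the control, with 4 that passed the genotype difference.

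Drug efflux pumps and xenobiotic enzymes had 0 of 32 genes that passed, with 9 whose CT21 libraries all lay below the CT9 libraries (4.01% of all genes tested) and 1 above (3.60%). The median was −0.32, and −0.30 without replicate 4. In the control it was −0.37, with 1 that rose and 6 that fell, and 0 passed the genotype difference. Other lists also held genes without overlap. Of 33 nuclear-encoded respiratory chain genes 8 were higher and 0 lower, and of 12 enterocyte markers 4 and 0. Of 26 fat absorption genes 5 were higher and 1 lower. Ugt1a1, a glucuronosyltransferase gene, stood at 49.5, 48.1 and 49.2 CPM against 33.7, 34.7, 30.1 and 20.8 CPM (−0.71, adjusted p = 0.0634). Bile acid handling had a median of −0.33 over 5 measured genes, none of which passed, and −0.55 with 1 that fell without replicate 4. Its receptor Nr1h4 (FXR) stood at 57.0, 47.6 and 54.3 CPM against 39.8, 31.5, 40.9 and 37.7 CPM (−0.50, adjusted p = 0.0892). Neither Ugt1a1 nor Nr1h4 overlapped between the times, and neither passed. Heat shock and chaperone genes had 0 of 17 that passed (median 0.34, and 0.30 without replicate 4), and glucocorticoid-responsive genes 0 of 15 (median 0.21, and −0.04 without it).

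Some medians followed the library that stands apart. Nuclear-encoded respiratory chain genes, mostly short, had a median of 0.36 with all libraries and 0.09 without replicate 4, and cytosolic ribosomal protein genes 0.17 and −0.25. Paneth cell markers went from 0.15 to −0.30, goblet cell markers from 0.29 to 0.02, and enterocyte markers from 0.33 to 0.21. The summed level of the enterocyte markers was 22000 to 26500 CPM in the CT9 libraries and 26800 to 38100 CPM at CT21. No gene of the Paneth or goblet list passed in either fit.

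No marker gene of the other cells that a piece of jejunum can hold passed. Summed levels of 12 T cell and intraepithelial lymphocyte markers were 64.9 to 140 CPM at CT9 and 119 to 150 CPM at CT21, and those of 10 smooth muscle markers 2240 to 2910 and 1580 to 2630 CPM. Fibroblast and endothelial markers summed to 740 to 906 CPM at CT9 and to 602 to 732 CPM at CT21, without overlap (10 genes, median −0.12). Red blood cell markers summed to 8.16 to 9.87 CPM at CT9 and 9.80 to 33.7 CPM at CT21 (median 1.52 over 4 genes; Hbb-bt, 1.74, adjusted p = 0.251). Of 10 pancreatic acinar markers 2 had enough counts to be tested, and their median was 0.24 with all libraries and −0.26 without replicate 4. The part of these cells in the changes above was not tested.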

How the data were processed

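Values are raw read counts per gene as the authors deposited them, in 1 column per library. The submitters' processing notes name the mm10 genome and, with no order given, STAR 2.7.5c and featureCounts 1.4.6, besides FastQC 0.11.5, SAMtools 1.3.1, Trimmomatic 0.39 and DESeq2 1.22.0. Per the labels' protocols, RNA came from a NucleoSpin kit and libraries from a stranded mRNA kit. How strand and multiply mapped reads were counted is not given in the sources used here. Genes that overlap another gene (13 of the 32, of them 2 on the same strand) or have near-identical copies are therefore uncertain. The table has 55401 gene IDs, of which 33965 have a count. Of the IDs, 260 had no match in GENCODE annotation of mm10, which gave symbols, coordinates and exon lengths.

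The counts were modelled with edgeR 4.0.16 (R 4.3.3). Genes were filtered on the 12 groups (minimum count 10, minimum total 15), which left 15646, and libraries were scaled by TMM. Group means were fitted to 47 libraries by robust quasi-likelihood (35 residual degrees of freedom), and knockout CT21 minus CT9, control CT21 minus CT9 and their difference were tested. P-values were adjusted by Benjamini-Hochberg over all genes, with a threshold of 0.05. Fold changes are log2 with standard errors (SE). Replicates were numbered in accession order and pair nothing. No libraries among the 7 agreed within sampling noise: chi-square per degree of freedom was at least 5.00.

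Members, lists and tests were chosen with earlier results of these data known. Genes named were the 12 largest rises and falls among those that passed with no overlap between groups and a mean of at least 5 CPM in the higher group, all clock genes, the lowest adjusted p of a list, and the 8 largest genotype differences with that mean in any of the 4 groups. A few genes that the rule names are not reported here. The scripts were tested on simulated data. Alternatives were other scalings, DESeq2 1.42.0, limma 3.58.1 (voom with quality weights), no filter, fits to only the groups compared, a removed length trend and left-out libraries.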

Additional observations from a re-analysis of the deposited data

Results flagged for a closer look

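In the groups of 4, 49 values were tested for a single library far from the rest, and 4 stood out by Dixon's criterion, which chance meets in about 1 of 20 groups. Spon2 stood at 53.6 CPM in knockout CT21 replicate 4, against 24.1 to 29.0 CPM in the other 3. Npas2 stood at 105 CPM in knockout CT21 replicate 1, against 79.8 to 82.9 CPM in the other 3. The other 2 are traits of knockout CT21 replicate 4, its interquartile range of relative log expression of 1.1 and its mitochondrial share of 2.42%.

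The difference between CT21 and CT9 differed between the genotypes for 65 genes by edgeR's test of the difference itself. Those named had knockout minus control values on the log2 scale of −3.30 for Slc34a2, 2.93 for Nr1d1, −2.92 for Gm28373, −2.77 for Arntl, −2.68 for Sprr2a1, −2.55 for Nfil3, −2.54 for Ypel2 and −2.29 for Ces1d. Other clock genes had 2.27 for Dbp, −1.46 for Npas2, 1.37 for Tef and −1.0 for Bhlhe40.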

How the results depend on the processing

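The count of 32 genes for the knockout was 72 without the 5 libraries with the length trend, 2 (Nr1d1 and Dbp) in a fit to only the groups compared, 84 by DESeq2, 183 by limma-voom with quality weights and 19 with no filter, and 8 to 44 with single libraries left out. At 1.5-fold or more it was 30, and 52, 2, 68, 118 and 19 under the same settings, and 8 to 40 with libraries left out. The control count of 845 was 229 in a fit to only the groups compared, 534 with no filter and 523 to 950 with libraries left out, the lowest without CT21 replicate 1. The 65 genotype differences became 119 without the 5 libraries, 18 with only the groups compared, 141 by limma-voom and 41 to 82 with libraries left out. RLE scaling (32) and upper quartile scaling (30) left the knockout count within 1.5 times, as did removing the length trend (38).

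Values near 0, none of which passed in any setting, changed sign for some clock genes. In the knockout these were Clock (0.00 by upper quartile scaling; −0.22 to 0.27 with libraries left out), Bhlhe40 (0.00; −0.08 to 0.09), Cry1 (−0.11 to 0.23), Per2 (0.19 without the 5 libraries, 0.26 by limma-voom, 0.05 with the length trend removed; −0.21 to 0.23) and Csnk1d (−0.08 without the 5, −0.07 by limma-voom; −0.08 to 0.07). Genotype differences that changed sign were those of Clock (−0.34 to 0.16), Bhlhe41 (−0.11 without the 5; −0.27 to 0.25), Rora (0.03 by limma-voom; −0.37 to 0.11) and Per1 (0.00 without the 5, 0.01 with only the groups compared, RLE or DESeq2, 0.05 by limma-voom, 0.02 with no filter or with the length trend removed; −0.12 to 0.25). The control value of Clock ranged from −0.08 to 0.34. The causes were not tested. No paired analysis was possible because the labels give no replicate numbers that groups share. With 3 CT9 libraries, of 5.46 to 6.36 M counts, genes with few counts such as Ciart and Bhlhe41 have wide errors.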
